A study of Danio rerio with 5 samples.

Results

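Circular RNAs (circRNAs) of early zebrafish embryos were set against those of later embryos, with 4 of the series' 5 libraries. The early side held the library at 4.5 hours post fertilization (hpf), labelled blastula, and the library at 8 hpf, labelled gastrula. The late side held the library at 48 hpf, labelled throat, and the library at 72 hpf, labelled incubation. The segmentation library at 24 hpf took no part in the comparison and was read afterwards, as a library that no call had used. All embryos were wild type, of the strain spelled Tubingenz in the labels, untreated, and taken whole from natural matings. Total RNA was DNase-treated and depleted of ribosomal RNA before strand-specific libraries were made. Each stage had 1 library, and the number of embryos behind it is not given in the labels. The 2 libraries of a side are therefore different stages and not replicates. What the comparison shows is which circRNAs differed in the same direction in both stages of a side.

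A circRNA forms when the splicing machinery joins the end of a downstream exon back to the start of an upstream one, which closes the RNA into a ring. Rings have no free ends, so exonucleases degrade them slowly, and circRNAs often outlive the linear RNA of the same gene. The blastula embryo still carries RNA laid down in the egg, while its own genome is being switched on. Later embryos have differentiated muscle, nervous system and other organs, and nervous tissue is known to be rich in circRNAs in many animals. In RNA from whole embryos, fewer cells of a type and less RNA per cell cannot be told apart. The tables pair no circRNA with a gene, so circRNAs are named by position, and the labelled tissue could not be checked against marker genes.

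Reads over the back-splice junction, where both ends of the ring meet, were counted for each circRNA. From the blastula to the 72 hpf library, the 4 totals were 20410, 24580, 15850 and 19036 such junction reads. Of the 8604 circRNAs listed in any of them, 989 (11.5%) had at least 10 junction reads in all and were compared. These held 62.7%, 69.5%, 62.1% and 74.0% of the junction reads of the 4 libraries, in the same order. Levels are given in SRPBM, the authors' name for junction reads scaled to library depth, in which 1 read is worth 0.101, 0.0872, 0.102 and 0.122 in these libraries. A library lists a circRNA from 2 reads upward, so "not listed" means fewer than 2 reads at that exact position, if nothing else removed the junction.

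Few circRNAs were listed throughout. Of the 989, 199 were listed in only 1 of the 4 libraries, 402 in 2, 252 in 3 and 136 in all 4. Those of 2 libraries were mostly confined to 1 side, with 159 listed at 4.5 and 8 hpf alone and 133 at 48 and 72 hpf alone. Another 110 were listed in 1 early and 1 late library and in neither of the others. In all, 427 were listed in both early libraries and 389 in both late ones.

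A consistent difference was called where all 4 late to early ratios were at least 2-fold in the same direction. For each circRNA this is the ratio of the lower library of the high side to the higher library of the low side, called the gap ratio below. A library in which a circRNA was not listed was set at 3 reads for this ratio. Listing begins at 2 reads, so an unlisted library was set above a library that listed 2 reads. A low side listed with 2 reads thus made a call easier than an unlisted one. The split of the calls by listing, given below, depends on this setting. On this rule 115 circRNAs (11.6% of those tested) were higher on the late side and 76 (7.68%) were higher on the early side. The median gap ratio was 3.23 for the late set and 2.85 for the early set. For 84 late and 50 early calls, the higher level of the low side was an unlisted library at 3 reads. Those 3 reads are worth 0.303 SRPBM at 4.5 hpf and 0.367 at 72 hpf, which lowers such ratios on the early side. The medians therefore do not show that late gaps were wider. Gap ratios of 4 or more were reached by 43 late and 22 early circRNAs. Of the late set, 73 were listed in neither early library, 27 in 1 and 15 in both. Of the early set, 36 were listed in neither late library, 22 in 1 and 18 in both.

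The balance between the sides depends on how low levels are read. Where the other side was not listed, a late call needed 6 reads in the 48 hpf library and 5 in the 72 hpf one, whereas an early call needed 8 and 9 reads in the blastula and gastrula libraries, because the libraries differ in depth. With unlisted circRNAs at 1 read, the most they can have, 185 were higher late and 192 higher early, so 49.1% of the calls were higher late against 60.2% before. If only separation is asked, with the lower library of a side above the higher library of the other, 241 (24.4%) were higher late and 267 (27%) higher early. Scaling to total junction reads or by TMM left 64.4% and 55.6% of the 2-fold calls on the late side. Both move late levels against early ones by a mean of 0.12 on the log2 scale, but single libraries moved more. From 4.5 to 72 hpf, total reads multiplied levels by 0.974, 0.937, 1.245 and 0.862 against depth, and TMM by 0.781, 1.18, 1.17 and 0.933. Leaving out 1 library leaves 2 ratios to meet in place of 4. This gave 276 early calls without 8 hpf and 159 without 4.5 hpf, and 183 late calls without 48 hpf and 175 without 72 hpf. Late calls were then 33.3% of the calls without 8 hpf and 46.1% without 4.5 hpf, but 68.5% without 48 hpf and 62.3% without 72 hpf. The median log2 ratio of late to early means was -0.42 over all 989 circRNAs per depth, with unlisted at 3 reads.

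Tests against the spread between the 2 stages of a side differed by tool. With edgeR's quasi-likelihood test of late against early counts, 0 of 989 circRNAs (0%) had a Benjamini-Hochberg adjusted p under 0.05, and the lowest adjusted p was 0.285. At an unadjusted edgeR p under 0.05 there were 121, of which 67 were higher late and 54 higher early. Of the 121, 99 were also among the 191 calls of the 2-fold rule. Both come from the same counts, so this overlap is no separate support for either. DESeq2 called 13 circRNAs, 10 higher late and 3 higher early, which is 5.39% of the 241 it gave an adjusted p. It gave none for the other 748. Of those 13, 10 were listed in only 1 of the 4 libraries, so that the other stage of their side did not list them. The other 3 were also 2-fold calls, and each was listed in both libraries of its high side and in neither of the low side. They were chromosome 5, 31666036 to 31700665, higher late with a DESeq2 adjusted p of 0.0037, chromosome 9, 37683792 to 37695047, higher late at 0.044, and scaffold KN150127.1, 15984 to 16405, higher early at 0.00093. Their adjusted p over the 9 edgeR settings ran from 0.172 to 0.576, from 0.0962 to 0.467 and from 0.247 to 0.615, in the same order. An exact permutation test of 2 libraries against 2 cannot go below a two-sided p of 0.333. In these tests stages stand in for replicates, so the values that follow are levels in single libraries, with intervals that cover counting error only.

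**Figure D1:**
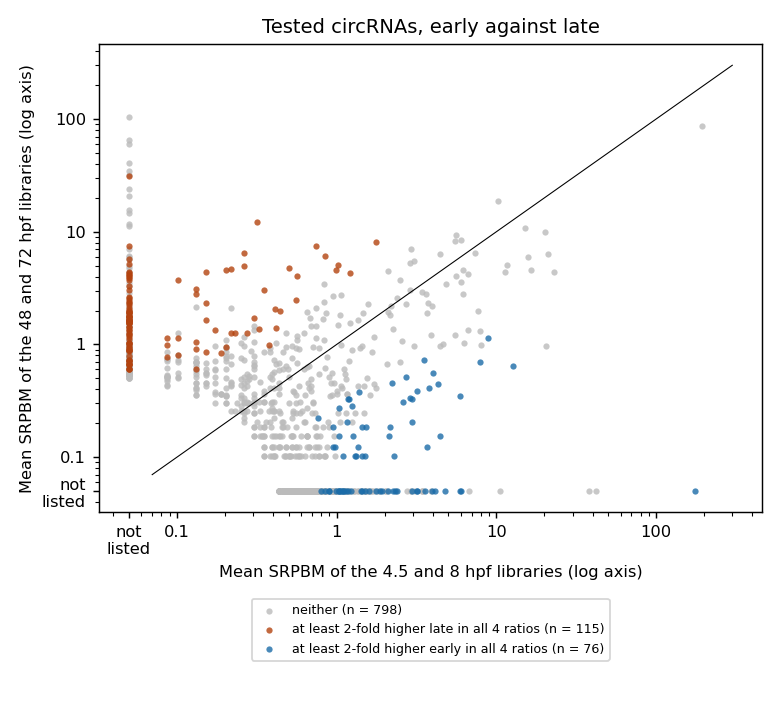
Mean level of the 989 tested circRNAs over the 4.5 and 8 hpf libraries (x axis, SRPBM, log) and over the 48 and 72 hpf libraries (y axis, SRPBM, log), 1 point per circRNA, with means of 0 drawn at "not listed". The 115 late and 76 early calls lie away from the diagonal, but several of the highest points next to the axes are uncalled, because 1 library alone carried them.

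The circRNA with the widest late gap lay on chromosome 5, 31666036 to 31700665, with a genomic span of 34629 bp. Neither early library listed it, while the 48 and 72 hpf libraries had 123 and 408 reads (12.5 and 49.9 SRPBM). Both late libraries were thus high, with a gap of at least 41.3-fold. No circRNA within 100 kb and within 5% of its span was listed early. Its position overlaps 31688205 to 31704934 and 31690705 to 31707442, which had 1689 and 984 reads, all from the 72 hpf library. The next widest late gap lay on chromosome 8, 16656395 to 16668464, with 2, 5, 94 and 121 reads from the youngest to the oldest library. Its levels were 0.202, 0.436, 9.57 and 14.8 SRPBM, so every late library was far above every early one. Summed over each side per depth, it was 36.5-fold higher late (95% interval 17.4 to 91.8), with a gap ratio of 21.9. A junction of nearly the same span, 16656134 to 16668194 on chromosome 8, had 3 reads at 4.5 hpf.

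A further 6 of the 12 widest late gaps were bounds, since neither early library listed the circRNA. On chromosome 9, 37683792 to 37695047 had 51 and 81 late reads, at least 17.1-fold above the early side. On chromosome 19, the short span 18954243 to 18955394 had 50 and 53 reads, at least 16.8-fold. In level, both were higher in the 72 hpf library than in the 48 hpf one. On chromosome 5, 68822794 to 68844096 had 46 and 33 reads, at least 13.3-fold. On chromosome 23, 3684718 to 3686798 had 64 and 31 reads, at least 12.5-fold. In this pair the 48 hpf library was the higher one in level. On chromosome 15, 21164472 to 21187038 had 43 and 28 reads, at least 11.3-fold, although a junction of like span at 21178815 to 21201867 had 15 reads at 8 hpf. On chromosome 12, 43933508 to 43934194 had 30 and 43 reads, at least 10.1-fold, and 43916953 to 43917619 nearby had 3 reads at 8 hpf. For those last 2, the bound holds for the exact position only.

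The other 4 of the 12 had a few early reads. Folds given for them are of summed reads per depth. Their gap ratios were 12.4, 10.1, 9.82 and 9.40, in the order described. On chromosome 10, 44527274 to 44542314 was not listed at 4.5 hpf and had 6, 64 and 53 reads at 8, 48 and 72 hpf, 23.2-fold higher late (10.3 to 64.4). On chromosome 14, 13158247 to 13159940 had 3 reads in the gastrula library, then 31 and 25 late reads, 22.2-fold higher late (7.20 to 111). In both the early reads came from the gastrula library and the late libraries were within 2-fold of each other. On chromosome 6, the very long span 2595911 to 2996003 had 4 reads at 4.5 hpf, none listed at 8 hpf, then 39 and 43 reads, 24.3-fold higher late (9.15 to 91.5). On chromosome 15, 43184266 to 43507359, also very long, had 3 reads at 4.5 hpf, none listed at 8 hpf, then 28 and 48 reads, 30.1-fold higher late (9.91 to 149). Here the early reads came from the blastula library. A junction that shares its end, 43184085 to 43507359, had 6 more reads at 4.5 hpf.

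Gaps on the early side were narrower than the widest late ones. The widest lay on chromosome 24, 9051933 to 9052722, a span of 789 bp, with 65 and 61 early reads and none listed late. At 6.56 and 5.32 SRPBM, both early libraries were at least 14.5-fold above the late side. On chromosome 24, 33633131 to 33635992 had 64 and 36 early reads, at least 8.55-fold. On chromosome 10, 24219736 to 24256336 had 22 and 28, at least 6.05-fold. On chromosome 23, 44757224 to 44761020 had 19 and 26, at least 5.23-fold. Those 4 were the only ones among the 12 widest early gaps that neither late library listed.

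The remaining 8 kept some late reads. Folds given for them are of summed reads per depth. Those described first had gap ratios of 9.91, 7.28, 5.82, 6.65 and 5.78, in the order below. On chromosome 17, 3349985 to 3350375, a span of 390 bp, had 48 and 81 early reads and 2 and 4 late ones, 18.1-fold higher early (8.10 to 50.3). It was 1 of 20 early calls that were higher in the gastrula than in the blastula library. On chromosome 3, 10557220 to 10563292 had 82 and 85 early reads and 10 and 3 late ones, 10.8-fold higher early (6.16 to 20.7). On chromosome 17, 52534232 to 52538743 had the most early reads of the 12, with 88 and 102, and 15 and 6 late reads, 7.62-fold higher early (4.84 to 12.6). At 8.89 SRPBM in each, its blastula and gastrula levels were the same to within counting error. On chromosome 10, 43059027 to 43066410 had 33 and 28 early reads and 3 in each late library, 8.56-fold higher early (3.72 to 24.2). On chromosome 24, 33635823 to 33645474 had 35 and 27 early reads, 4 at 48 hpf and none listed at 72 hpf, 13.05-fold higher early (4.85 to 49.4). It overlaps the chromosome 24 circRNA at 33633131 to 33635992, and both were higher early.

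For the last 3 of these 12, 1 late library listed 2 or 3 reads. On chromosome 20, 20582747 to 20583723 had 43 and 35 early reads and 2 at 72 hpf, 32.8-fold higher early (8.79 to 276). On chromosome 1, 11651792 to 11654987 had 52 and 42 early reads and 3 at 48 hpf, 26.4-fold higher early (8.76 to 130.3). On chromosome 24, 29130286 to 29130771 had 23 and 26 early reads and 2 at 48 hpf, 20.6-fold higher early (5.42 to 175). The wide intervals come from the 2 or 3 late reads. These folds are of summed reads per depth, with the unlisted library at 0. With it at 3 reads, the gap ratios were 9.995, 9.98 and 6.18, in the same order. All 24 circRNAs of the widest gaps had the same adjusted p of 0.285 in edgeR's quasi-likelihood test. With DESeq2, the 2 late ones named above, on chromosomes 5 and 9, had an adjusted p under 0.05, and the other 22 ran from 0.063 to 0.429.

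**Figure D2:**
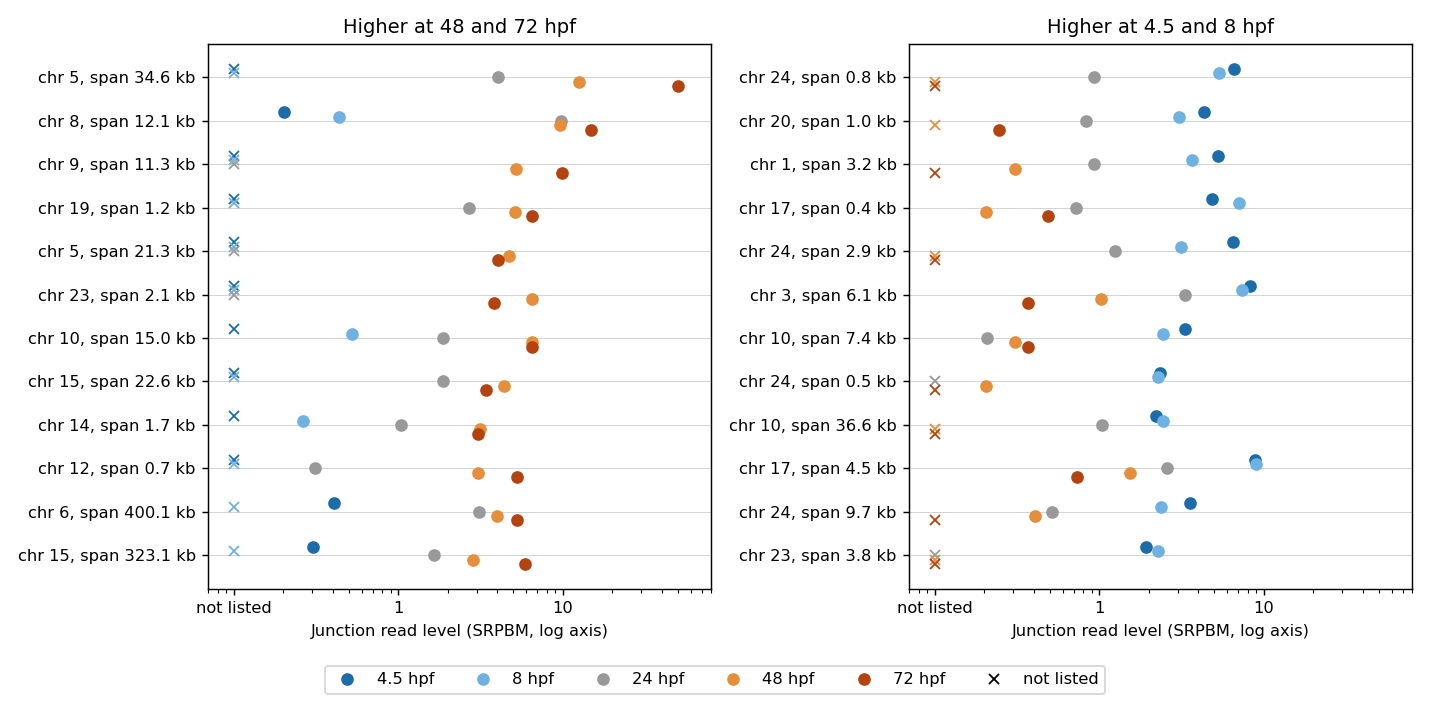
Level in each of the 5 libraries (x axis, SRPBM, log) of the 12 circRNAs with the widest gap on each side, 1 row per circRNA, with crosses at the left edge for libraries that did not list it. In every row, by the call rule itself, the 2 libraries of the high side lie right of the 2 of the low side. The 24 hpf library, which was not used to choose the rows, mostly lies between.

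The other 103 late calls had gap ratios from 2.02 to 9.07 and between 11 and 146 reads over both late libraries, with a median of 28. The other 64 early calls had gap ratios from 2.14 to 5.23, with a median of 30 early reads. Next to the 2-fold limit, chromosome 1, 20178012 to 20181413, was just inside at 2.02 and chromosome 2, 29919367 to 29921858, just outside at 1.96 on the late side. On the early side, chromosome 1, 12516709 to 12517111, was just inside at 2.14 and chromosome 22, 1520258 to 1520793, just outside at 1.995.

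Within its own side, a called circRNA was mostly within 2-fold between the stages. Of the 115 late calls, 83 (72.2%) were within 2-fold between 48 and 72 hpf, while the 72 hpf library was at least 2-fold above the 48 hpf one for 25 and at least 2-fold below it for 7. Of the 76 early calls, 55 (72.4%) were within 2-fold between 4.5 and 8 hpf, while 20 were at least 2-fold higher at 4.5 hpf. Of all 989, with unlisted at 3 reads, 67.6% were within 2-fold between the late libraries and 53.7% between the early ones. A single early call was at least 2-fold higher at 8 hpf. This was scaffold KN150127.1, 15984 to 16405, with 18 blastula and 4025 gastrula reads, so that the gastrula library carried nearly all of it. Without that scaffold, the early calls numbered 75 and the late calls 115. The call rule itself favours like levels within a side, so these shares describe the calls only.

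The called sets held a modest part of each library. The late set made up 14.9% and 14.98% of the junction reads of the 48 and 72 hpf libraries, against 0.730% and 0.716% of those of the blastula and gastrula libraries. The early set made up 11.4% and 22.5% of the early libraries, against 0.820% and 0.457% of the late ones. Its reads at 8 hpf numbered 5540, of which the 4025 of the KN150127.1 circRNA were most. The call rule chose each set for being higher in the libraries of its side. The contrast between the sides therefore follows from the rule, and the shares only describe how much the sets held.

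Several of the most abundant circRNAs came from a single stage. Of the 20 with the highest mean level over the 4 libraries, 9 (45%) were listed in 1 library alone, against 20.1% of all tested, and another 9 were listed in all 4. On the 2-fold rule 1 was a late call, 1 an early call and 18 (90%) were neither, against 80.7% of all tested. The sides of 8 of them did not overlap, with 2 higher late and 6 higher early (10% and 30%, against 24.4% and 27% of all tested). The 1689 reads of chromosome 5, 31688205 to 31704934, all came from the 72 hpf library. Likewise the 1275 reads of scaffold KN150127.1, 6486 to 9445, were all from 48 hpf, and the 877 of chromosome 6, 6817343 to 6833488, all from 8 hpf. Each of these is high in 1 stage and not listed in the other stage of its side. On scaffold KN150127.1, 3657 to 4045 was listed in all 4, with 22, 4398, 129 and 1312 reads from 4.5 to 72 hpf, so it was high at 8 and 72 hpf and its sides overlapped.

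Among abundant circRNAs listed in all 4 libraries, several separated by side without reaching 2-fold in every ratio. On chromosome 2, 116705 to 117894 had 30.2, 12.2, 4.99 and 7.58 SRPBM from 4.5 to 72 hpf, and on chromosome 17, 48844580 to 48934121 had 21.1, 11.9, 2.44 and 6.73 SRPBM. Both were higher early without overlap. On chromosome 25, 32356968 to 32384589 had 15.6, 4.79, 16.8 and 20.9 SRPBM. There the late side lay above the early one, but the blastula level was close to the 48 hpf level, and the gastrula library alone was low.

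The 136 circRNAs listed in all 4 libraries show how far apart the stages of a side were. Between 48 and 72 hpf, 29.4% of them differed at least 2-fold, but between 4.5 and 8 hpf 52.2% did. That is about as many as between 8 and 48 hpf, where 51.5% differed 2-fold, and fewer than the 66.2% between 4.5 and 48 hpf. For 8 and 72 hpf the share was 55.1%, and for 4.5 and 72 hpf 64.0%. The 2-fold differences within the early side went mostly 1 way, with 63 lower and 8 higher at 8 hpf than at 4.5 hpf. These shares and directions rest on the depth scaling. Against it, TMM multiplied levels by 0.781 at 4.5 hpf and 1.18 at 8 hpf, and total junction reads by 0.974 and 0.937. The pairs were not recomputed under either. Centred on the median of each pair, the median absolute log2 difference was 0.54 between the late libraries and 0.92 between the early ones. Across sides it ran from 1.06 to 1.36 on that centred log2 scale. The late side was thus the closer pair, and the early side was nearly as spread as the closest pair across sides.

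**Figure D3:**
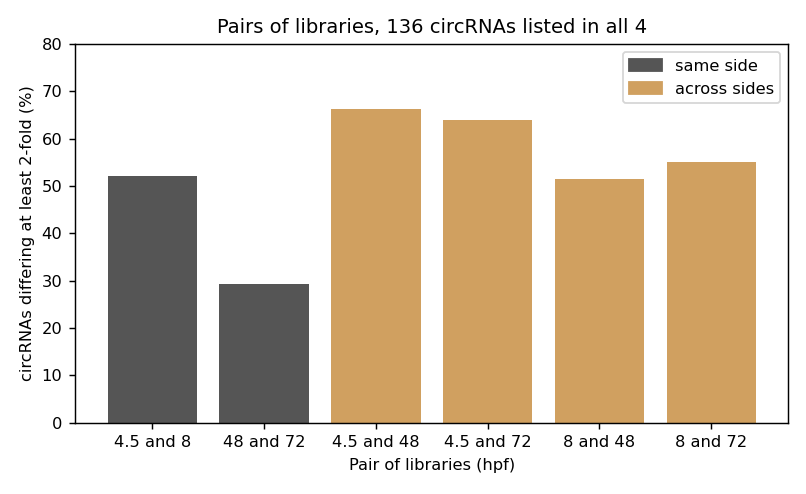
Share of the 136 circRNAs listed in all 4 libraries that differed at least 2-fold (y axis, percent) for each of the 6 pairs of libraries (x axis), with pairs of 1 side dark and pairs across sides light. With levels scaled to depth, the 48 and 72 hpf pair is lowest at 29.4%. The 4.5 and 8 hpf pair at 52.2% is level with the 8 and 48 hpf pair at 51.5%.

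Of these 136, 34 (25%) separated by side with late higher and 41 (30.1%) with early higher, and 61 overlapped. Separation and the 2-fold rule both need listing in both libraries of the high side. All 136 had this, but of all tested only 389 had it late and 427 early, the 136 included. Of the 389, 241 separated with late higher, and of the 427, 267 with early higher, larger shares than among the 136. The 2-fold rule called 15 of the 136 late (11.03%) and 18 early (13.2%). Among all listed in both libraries of the side, it called 29.6% late and 17.8% early. Beyond those already described, chromosome 21, 395935 to 550030, had 9, 9, 44 and 64 reads from 4.5 to 72 hpf, 7.12-fold higher late (4.30 to 12.5). Chromosome 21, 1904158 to 1908376, had 6, 6, 25 and 46 reads, 7.02-fold higher late (3.78 to 14.2). In both, the 2 early libraries had the same count and both late ones stood above them. Chromosome 10, 29395151 to 29440821, had 62, 27, 4 and 4 reads, 9.37-fold higher early (4.55 to 22.4). Chromosome 7, 15515797 to 15533024, had 231, 23, 9 and 3 reads, 17.8-fold higher early (10.03 to 35.0), but the blastula library carried most of it and its gap ratio was 2.19.

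With unlisted at 3 reads, only 72 of the 989 circRNAs were within 2-fold in all 4 ratios, and 16 of those were listed in all 4 libraries. For the rest of the 72, this depends in part on the level set for unlisted libraries. The most abundant of the 72 was on chromosome 11, 44020549 to 44026831, with 15.9, 14.3, 11.8 and 9.91 SRPBM. Its highest library was 1.60-fold above its lowest. On chromosome 11, 43496943 to 43559737 had 5.76, 6.28, 6.92 and 10.2 SRPBM, and on chromosome 2, 58186047 to 58193420 had 6.36, 6.89, 3.66 and 4.77 SRPBM. The former was slightly higher late and the latter slightly higher early. At 24 hpf, which took no part in this rule, they had 20.4 and 2.68 SRPBM, so neither was steady over all 5 libraries. A pair on chromosome 13 followed, 51515225 to 51523661 with 7.37, 4.97, 3.87 and 5.26 SRPBM, and 51518779 to 51663458 with 6.66, 4.53, 4.48 and 3.67 SRPBM. The former overlaps between sides, while the latter was a little higher in both early libraries.

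In the 24 hpf library, which no call used, most called circRNAs lay either between the sides or no higher than the low side. Of the 115 late calls, 78 (67.8%) were listed at 24 hpf, and of the 76 early calls, 49 (64.5%), against 43.6% of all 989. Every call had to be listed in both libraries of its high side, whereas 199 of the 989 were listed in only 1 library. These shares therefore do not compare directly. Of the late calls, 62 lay above both early libraries and below both late ones, 10 had reached the lower late library, and 43 were no higher than the early side. Of the early calls, 39 lay between the sides, 2 were as high as the lower early library, and 35 were no higher than the late side. Where the low side was not listed, any listing at 24 hpf below the high side counts as between. The share between the sides among circRNAs without a call was not counted. The median level at 24 hpf was 0.309 SRPBM in both sets, which is 3 reads there, the count given to an unlisted library in the ratios. The medians of the low side were 0, with unlisted at 0. The medians at 48 and 72 hpf were 1.42 and 1.59 SRPBM in the late set, and those at 4.5 and 8 hpf were 1.97 and 1.22 SRPBM in the early set. The 24 hpf library held the fewest junction reads, 9563, although 1 read there was worth 0.103 SRPBM, close to the other libraries. It thus held fewer junction reads for its depth, which lowers levels there in general.

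**Figure D4:**
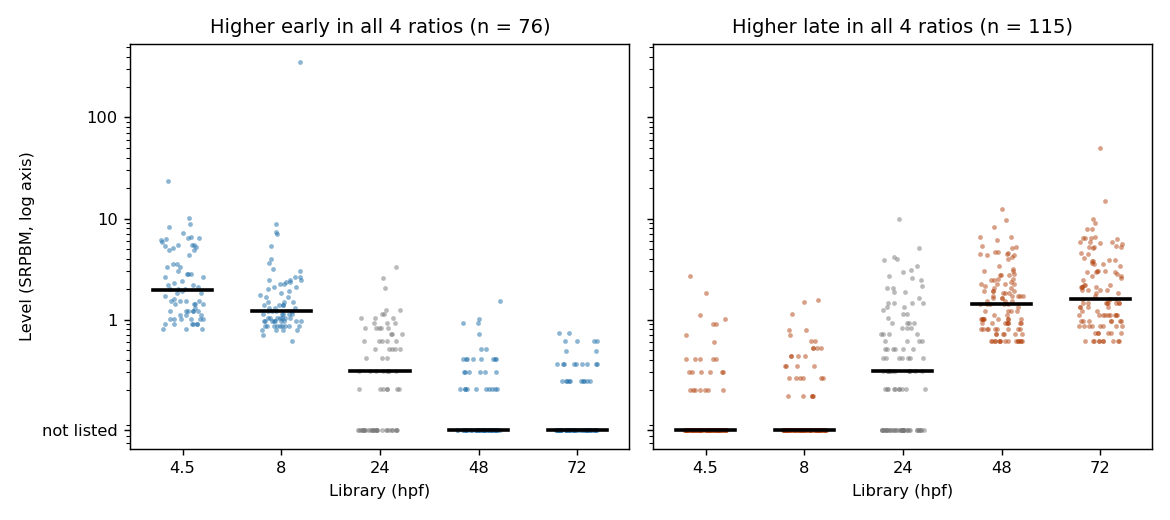
Level (y axis, SRPBM, log) of each early call (left, n = 76) and each late call (right, n = 115) in the 5 libraries (x axis), with black bars at the medians, grey points for the 24 hpf library and unlisted circRNAs at the bottom. The median at 24 hpf is 0.309 SRPBM in both sets, the level of 3 reads. It lies between the 2 sides only with unlisted circRNAs at the bottom, where the medians of the low side are.

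Some late calls were already at their later level at 24 hpf. Chromosome 8, 16656395 to 16668464, had 95 reads at 24 hpf (9.78 SRPBM), next to 9.57 SRPBM at 48 hpf. Chromosome 21, 395935 to 550030, had 50 reads (5.15 SRPBM), and chromosome 9, 52751544 to 53055170, had 25 (2.57 SRPBM). Another 37 late calls were not listed at 24 hpf. They include the circRNAs of chromosomes 9, 23 and 5 that start at 37683792, 3684718 and 68822794, and chromosome 18, 47443382 to 47843816. Among early calls, chromosome 17, 53315667 to 53316598, was as high at 24 hpf, with 12 reads, as in the early libraries, with 11 and 14. By contrast, chromosome 10, 41368493 to 41374060, went from 71 and 13 early reads to not listed at 24 hpf.

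Late calls had shorter genomic spans at the median than early calls. Span here means the genomic distance between both ends of the junction, with introns. Its median was 3382 bp for late calls, 7340.5 bp for early calls and 5670 bp for all tested circRNAs. Quartiles were 1745 and 12133 bp for late calls and 2102.5 and 15256 bp for early calls, so the ranges overlap widely. Among circRNAs listed in both libraries of a side, medians were 4870 bp late and 7242 bp early. These sets include all calls of their side, so they are not separate from the calls. Spans under 500 bp went the other way, with 6 of the late calls (5.22%), 8 of the early calls (10.5%) and 9.40% of all tested. Spans over 100 kb made up 9 of the 115 late calls (7.83%), 1 of the 76 early calls (1.32%) and 5.56% of all tested. Among circRNAs listed in both libraries of a side they made up 8.23% late and 5.15% early, so the late calls held no larger share of long spans than late-listed circRNAs in general. These shares were not tested, since circRNAs are not replicates of a stage.

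**Figure D5:**
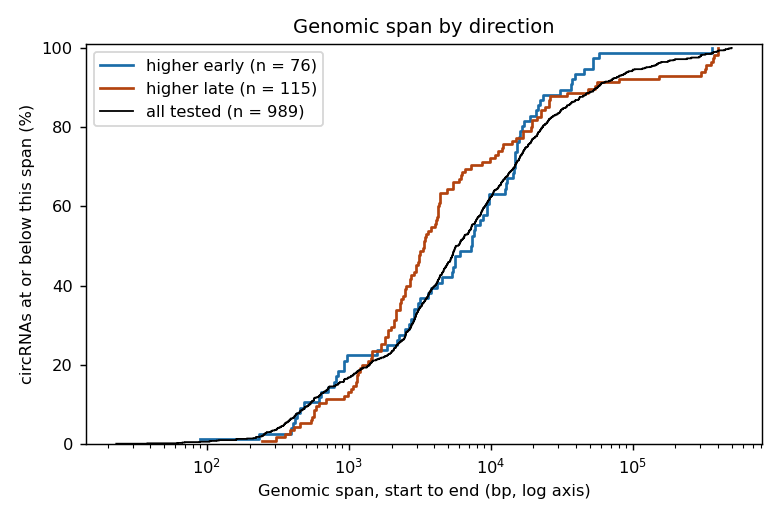
Cumulative share (y axis, percent) of circRNAs at or below a genomic span (x axis, bp, log) for the 76 early calls, the 115 late calls and all 989 tested. The late curve lies left of the early one around its median of 3382 bp. It lies right of the early one near 500 bp and at the longest spans.

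The 9 long late calls came from 9 chromosomes. Besides those on chromosomes 6, 15 and 21 above, chromosome 18, 47443382 to 47843816, had 23 and 48 reads at 48 and 72 hpf, and chromosome 22, 27267432 to 27634075, had 18 and 17. Chromosome 8, 53704190 to 54058895, had 22 and 14 reads, and chromosome 4, 60868664 to 61197888, had 9 and 16. None of those 4 was listed early. Chromosome 13, 51311159 to 51684462, had 27, 9, 81 and 65 reads from 4.5 to 72 hpf, and chromosome 9, 52751544 to 53055170, had 11 at 4.5 hpf and 22 in each late library. The long early call was on chromosome 15, 155239 to 516473, with 50 and 10 early reads and none listed late. Whether a junction of this length joins exons of 1 gene was not determined.

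Calls that overlap each other went the same way. Merging circRNAs that overlap, up to a span of 50 kb each, gave regions, 1022 of them with 10 or more reads. Of these, 169 held a 2-fold call. Calls with longer spans were left out of the regions. No region held calls in both directions, while 4 held 2 late calls and 2 held 2 early calls. On chromosome 10, 44527274 to 44542314 and the short 44541958 to 44542314 share an end, and the latter had 11 and 10 late reads and none listed early. On chromosome 20, 1940067 to 1959444 and 1940067 to 1959582 share a start, with 10 and 18 late reads for the former and 14 and 42 for the latter. Neither was listed early. On chromosome 10, 24219736 to 24229116 and 24219736 to 24256336 share a start, with 22 and 11 early reads for the former, and neither was listed late. A region of chromosome 2 held circRNAs that separated in opposite directions below the 2-fold limit. There 32095664 to 32106188 had 14 and 5 early reads and none listed late, while 32105341 to 32106188, with the same end, had 7 and 16 early and 19 and 14 late reads.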

How the data were processed

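Deposited counts are whole back-splice junction reads per circRNA, per the file headers. The deposited score, SRPBM per the file headers, was the count times 1 constant per library. The submitters' processing notes name BWA 0.7.5a-r405, and also edgeR 3.12.1, but give no roles. Neither the circRNA caller nor the build of the coordinates is stated in the labels or headers.

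Library tables were joined on exact position, with unlisted circRNAs at 0, or at 3 reads in a ratio. CircRNAs with 10 or more reads over the 4 libraries were compared. Ratios of summed reads per depth carry exact conditional Poisson 95% intervals. Because PCR copies cannot be told from separate molecules, intervals cover counting error only. Bounds set the unlisted library at 3 reads and carry no interval. Late was tested against early with edgeR 4.0.16 (quasi-likelihood, depth from the SRPBM constants, all circRNAs fitted together) and DESeq2 1.42.0 in R 4.3.3. Other steps used Python 3.11.15. Simulated counts were also run through edgeR and the 2-fold rule. Their spread between libraries was set below the spread that edgeR found here, so the procedure was not tested at that spread. Named circRNAs are the 12 widest gaps per direction and the 5 most abundant within 2-fold. Others were chosen for description after their values were seen. The comparison and its rules were chosen with earlier results of these data known. No gene list could be applied, as no circRNA is paired with a gene.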

Additional observations from a re-analysis of the deposited data

How the results depend on the processing

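Among 2-fold calls, setting unlisted circRNAs at 1 read gave 185 higher late and 192 higher early, and a ratio of 4 gave 43 and 22. Each of the 4 libraries was left out in turn, which leaves 2 ratios to meet and 679 to 774 circRNAs tested. Late calls then ranged from 136 to 183 and early calls from 84 to 276. Without the 8 hpf library early calls were 276, without 4.5 hpf 159, and late calls were 183 without 48 hpf and 175 without 72 hpf. With a minimum of 20 reads, 426 circRNAs were tested, and sides that did not overlap numbered 119 higher late and 125 higher early. With a minimum of 5 reads, 2623 were tested, with 380 and 443. The main minimum gave 241 and 267 of 989. As the numbers tested differ, these counts do not compare directly. DESeq2 gave 13 calls against 0 with edgeR, and the cause was not tested; edgeR gave 0 under all its other settings. The 2-fold counts stayed within 1.5 times under a ratio of 1.5, a minimum of 20 reads, scaling to total junction reads and TMM. They also did so with joined junctions, summed regions and removal of scaffold KN150127.1. A minimum of 5 reads again gave 115 late and 76 early 2-fold calls. That setting could not change these counts, because any 2-fold call needs more reads than the main minimum. With unlisted circRNAs at 1 level in all 4 libraries, an alternative chosen after the data were seen, there were 91 late and 75 early calls. The 24 circRNAs of the widest gaps stayed above 2-fold with total junction reads and TMM. This could not have come out otherwise. They were chosen for gap ratios that began at 5.23, and these scalings multiplied single libraries by only 0.781 to 1.245. Spans over exons were not run, as no annotation was used. No paired analysis was possible because each stage had 1 library. Depth limits low circRNAs, whose calls turn on a few reads.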

Other observations

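A group of circRNAs cut across the sides. Of the 989 tested, 110 were listed in 1 early and 1 late library alone. The pair was 8 and 72 hpf for 35, and 8 and 48 hpf for another 35. It was 4.5 and 48 hpf for 23 and 4.5 and 72 hpf for 17. Chromosome 8, 21058484 to 21068075, had 67 reads at 8 hpf and 114 at 72 hpf, and was listed at neither 4.5 nor 48 hpf, with 22 reads at 24 hpf. On the same chromosome, 21022708 to 21024928 had 31 reads at 8 hpf and 27 at 72 hpf. Scaffold KN150127.1, 3657 to 13394, had 19 and 56 reads at 8 and 72 hpf. These were high in the gastrula and 72 hpf libraries together. The short circRNA of chromosome 1, 25967354 to 25967612, had 143 reads at 8 hpf, 67 at 24 hpf and 17 at 72 hpf. Chromosome 16, 51147594 to 51230708, had 74 reads at 4.5 hpf and 38 at 72 hpf, and chromosome 2, 2490015 to 2518843, had 60 and 16. These examples were chosen by their summed reads after the data were seen.

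Calls were spread over the chromosomes with some unevenness. Over all tested, 11.6% were late and 7.68% early calls. Chromosome 5 held 11 late calls (19.3%) and 1 early call of 57 circRNAs tested, and chromosome 15 held 3 late and 8 early calls (17.8%) of 45. Others had like or higher shares, such as chromosome 12 with 5 late calls (20.8%) and 0 early of 24, chromosome 11 with 6 late calls (18.8%) of 32, and chromosome 17 with 7 early calls (18.9%) of 37. The late calls of chromosome 5 lay in several places. Among them, 31393442 to 31395759 had 17 and 20 reads at 48 and 72 hpf, and 22712582 to 22713196 had 18, 7, 41 and 36 reads from 4.5 to 72 hpf. The early calls of chromosome 15 included 4242564 to 4251905, with 100 and 22 early reads, and 21583828 to 21599671, with 61 and 11. Neither was listed late. These chromosomes were picked after the data were seen, and their shares were not tested.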
